A study of Rattus norvegicus with 17 samples.

Results

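A set of 37 genes was examined, made up of targets of the transcription factor p53 and genes of DNA repair, in the skin of rats exposed for months to millimetre waves. The genes were listed by name, and a gene was read wherever the sequence name of an array probe mapped to it. Of the 37 genes 31 had at least 1 probe (36 probes, of 30367 on the array), and 30 of them were measured well enough to be tested, among 11167 named genes tested in all. Ddb1, Ddb2, Ercc2, Sesn1, Atr and Lig3 had no probe under this rule and were not analysed here. Brca1, a homologous recombination factor, was well above background on 1 of 9 exposed arrays and on 0 of 8 sham arrays, and was not tested.

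Male CD hairless rats, 2 to 3 months old when the experiment began, received 94 GHz waves for 3 h a day on 3 days a week over 5.5 months, and sham rats followed the same schedule without the field. Skin explants, which hold epidermis, dermis and whatever lies attached, were profiled on 1-colour Agilent arrays, 9 from exposed and 8 from sham rats. Since the study's design counts only 6 exposed rats (and 8 sham), more than 1 exposed array may come from the same rat. The p-values measure the spread between arrays and would in that case be too small. In whole skin a smaller number of cells of a type and less RNA per cell cannot be told apart. Over the 17 arrays the upper quartile of processed signal lay between 1077 and 1703, 66.7% to 70.8% of the probes were well above background, and no spot was saturated. All 5 measured of 8 basal keratinocyte markers and all 5 measured of 10 suprabasal markers were well above background on every array. A marker counted as measured only if it had a probe well above background on at least 8 arrays. Dimmer markers could thus not count against this.

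Cells that sense broken or bulky DNA activate the kinases ATM and ATR, which stabilise p53. p53 then switches on genes that hold the cell cycle, remove badly damaged cells and supply the nucleotides for repair, and it switches on its own inhibitor MDM2. In the epidermis this response is best known from ultraviolet light, after which keratinocytes rely on nucleotide excision repair, whereas oxidised bases and single-strand breaks go to base excision repair and broken ends to the end-joining proteins.

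The p53 protein binds a pair of short half-sites, and its consensus half-site of 10 letters was searched by name on both strands of the promoter windows that RefSeq gives for the rat assembly GRCr8, from 250 bases before to 50 after each gene's start. A window was found for 29 of the 37 genes and not for Bax, Bbc3, Ddb2, Polb, Rrm2b, Tp53inp1, Xpa and Zmat3. At least 1 match lay in 5 of the 29 windows (17.2%), those of Cdkn1a, Gadd45a, Ccng1, Sesn1 and Aen, against 2165 of all 27457 promoter windows (7.89%). The windows of the 4 of these genes that were measured are shown. Whether a match bears on the values that follow was not tested. The match is in capitals, every sequence runs 5′ to 3′ on the strand of its gene, and a match is a run of letters, not a shown binding site.
Cdkn1a, chr20:7150682-7150981, plus strand: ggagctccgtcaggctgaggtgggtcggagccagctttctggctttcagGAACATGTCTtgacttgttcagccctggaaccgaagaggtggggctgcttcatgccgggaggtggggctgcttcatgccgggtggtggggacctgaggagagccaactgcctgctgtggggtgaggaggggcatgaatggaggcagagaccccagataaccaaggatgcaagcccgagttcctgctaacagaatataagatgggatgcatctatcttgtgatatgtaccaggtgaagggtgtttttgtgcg
Gadd45a, chr4:97486750-97487049, minus strand: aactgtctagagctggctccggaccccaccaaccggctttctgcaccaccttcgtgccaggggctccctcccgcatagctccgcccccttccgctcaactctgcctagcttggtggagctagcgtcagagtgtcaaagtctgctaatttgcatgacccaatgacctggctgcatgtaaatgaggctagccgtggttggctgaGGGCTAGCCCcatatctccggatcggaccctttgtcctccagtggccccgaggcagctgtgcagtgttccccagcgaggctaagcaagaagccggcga
Ccng1, chr10:25684827-25685126, minus strand: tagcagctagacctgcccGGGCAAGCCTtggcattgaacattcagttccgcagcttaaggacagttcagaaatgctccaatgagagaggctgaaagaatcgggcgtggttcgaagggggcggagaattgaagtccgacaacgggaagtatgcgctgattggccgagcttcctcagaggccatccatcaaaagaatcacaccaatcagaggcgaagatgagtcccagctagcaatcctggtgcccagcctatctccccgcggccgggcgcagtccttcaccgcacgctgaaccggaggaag
Aen, chr1:142224283-142224582, plus strand: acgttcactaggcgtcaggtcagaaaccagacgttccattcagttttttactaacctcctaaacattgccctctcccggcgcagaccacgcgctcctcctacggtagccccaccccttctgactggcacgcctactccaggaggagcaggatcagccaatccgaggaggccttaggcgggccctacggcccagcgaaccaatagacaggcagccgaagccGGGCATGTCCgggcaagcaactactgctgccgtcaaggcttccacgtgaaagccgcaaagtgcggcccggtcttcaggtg

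No member of the set reached an adjusted p under 0.05 for exposed against sham skin in limma, with Benjamini-Hochberg adjustment over all 20710 probes kept, of which 0% (0 probes) passed. The adjusted p of the 30 genes ran from 0.982 to 0.998. At an unadjusted p under 0.05 there were 2 of 30 genes (6.67%), Sesn2 and Tp53inp1, both lower in exposed skin, against 4.55% of all kept probes (942 probes) and 3.70% of the named genes. Of all kept probes 3.96% were lower at that level, and of the named genes 3.18%. Each gene was read from its brightest kept probe. The second probe of Cdkn1a, about as bright as the one read, was lower too, with an unadjusted limma p of 0.042. The groups overlapped for every gene of the set tested, as they did for nearly all others: 1 of all kept probes (0.00483%) and 0 of the named genes (0%) had groups that did not.

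Most of the differences were small, and most lay just below 0. The values are log2 processed signal relative to the 75th percentile of each array, and a difference is exposed minus sham. Of the 30 genes 22 (73.3%) had a lower mean in exposed skin and 8 a higher one, beside 59.3% lower of all named genes, which leaned the same way. With quantile scaling 20 of the 30 genes (66.7%) were lower, beside 52.8% of the named genes, and with median scaling 18 (60.0%), beside 50.4%. The median difference of the 30 genes was -0.040, against -0.018 over the named genes and -0.025 over all kept probes. The 95% interval of the difference stayed within 1.2-fold either way for 18 of the 30 genes (60.0%, against 53.6% of the named genes) and within 1.5-fold for 29 (96.7%, against 89% of the named genes). The exception at 1.5-fold is Rrm2b, the tested gene that was above background on the fewest arrays.

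**Figure D1:**
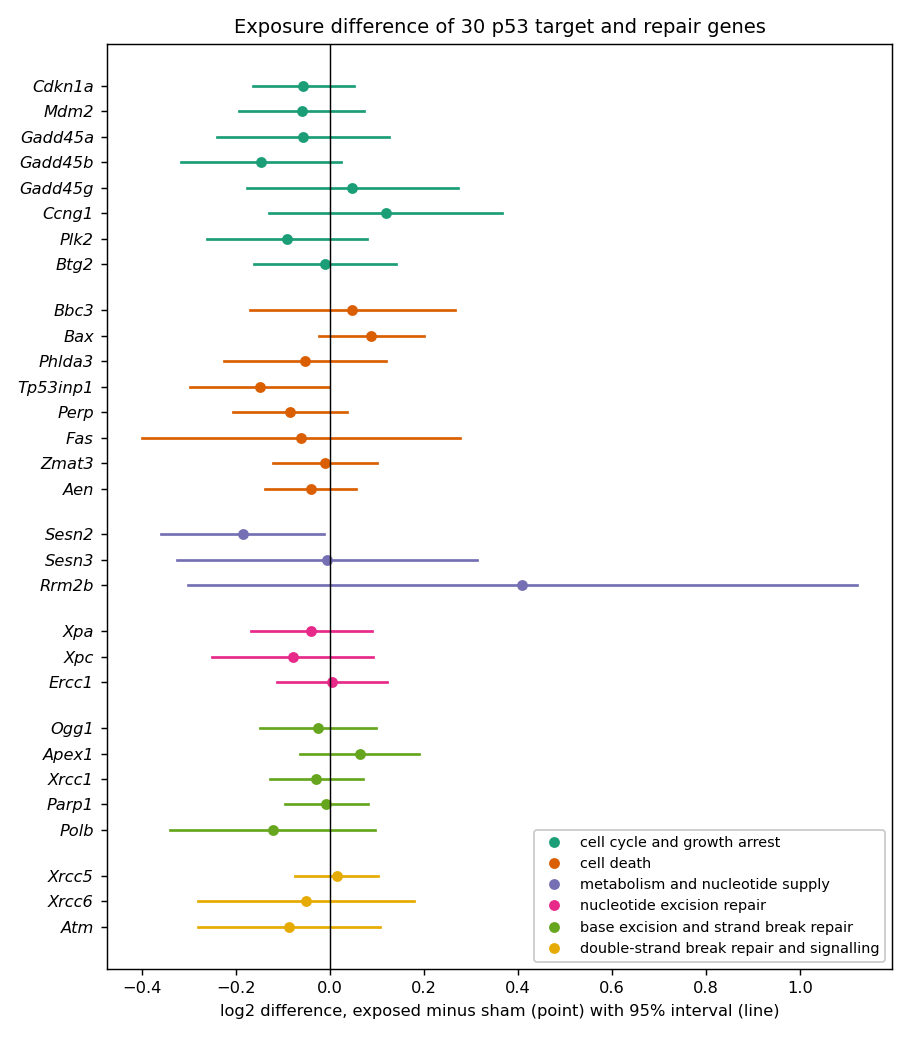
Difference between exposed and sham skin (horizontal axis, log2 units, exposed minus sham) of the 30 tested genes, grouped by role, with the point at the difference and the line as its 95% limma interval. The points run from -0.19 for Sesn2 to 0.41 for Rrm2b, whose line is by far the longest, and 22 of 30 lie left of 0.

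The cell cycle and growth arrest genes held 8 members, all measured, of which 6 were lower and 2 higher in exposed skin. The median difference was -0.057, and none had an unadjusted p under 0.05 on the probe read for it. A second Cdkn1a probe, which did, is described further below. Cdkn1a encodes p21, the inhibitor of cyclin-dependent kinases that carries much of the p53 arrest. Its signal ran from 3.56 to 3.82 (median 3.71) on the exposed arrays and from 3.63 to 3.84 (median 3.76) on the sham arrays. The ranges overlapped, with 4 of 9 exposed arrays below the lowest sham array, and the difference was -0.06 (95% interval -0.16 to 0.05; limma adjusted p = 0.982). Mdm2, the ubiquitin ligase that removes p53 and is itself a p53 target, ran from -0.72 to -0.46 (median -0.49) on exposed arrays and from -0.65 to -0.24 (median -0.50) on sham arrays. The medians nearly coincided, and the difference was -0.06 (95% interval -0.19 to 0.07; limma adjusted p = 0.982).

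The 3 Gadd45 genes encode small stress proteins that bind kinases, cyclin-dependent kinase 1 among them, and take part in DNA demethylation and repair. Gadd45a, whose window is printed above, ran from -0.36 to 0.28 (median -0.21) on exposed arrays and from -0.21 to 0.19 (median -0.09) on sham arrays. The exposed values spread out on both sides of the sham ones, with 5 below the lowest and 2 above the highest sham array, and the difference was -0.06 (95% interval -0.24 to 0.13; limma adjusted p = 0.982). Some of these were near ties. For Gadd45a exposed replicates 2, 3 and 4 (-0.2191, -0.2145 and -0.2112) lay barely below the lowest sham array (-0.2111). Exposed replicate 9 (0.2022) lay barely above the highest (0.1926). Gadd45b ran from 0.45 to 1.05 (median 0.62) on exposed arrays and from 0.58 to 1.02 (median 0.79) on sham arrays. Of the exposed arrays 8 of 9 lay below the sham mean while the remaining one was the highest of all 17, and the difference was -0.15 (95% interval -0.32 to 0.02; limma adjusted p = 0.982). Gadd45g ran from 0.45 to 0.90 (median 0.71) on exposed arrays and from 0.08 to 0.94 (median 0.75) on sham arrays, so every exposed value lay inside the sham range (difference 0.05, 95% interval -0.18 to 0.27; limma adjusted p = 0.985).

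Ccng1 encodes cyclin G1, a p53 target that recruits a phosphatase to MDM2. It ran from 0.14 to 0.75 (median 0.24) on exposed arrays and from -0.26 to 0.60 (median 0.20) on sham arrays. Most exposed arrays, 7 of 9, lay above the sham mean, but only 1 lay above the highest sham array, and the difference was 0.12 (95% interval -0.13 to 0.37; limma adjusted p = 0.982), between 0.055 without sham replicate 6 and 0.18 without sham replicate 3. Plk2, a p53-induced polo-like kinase, ran from -0.79 to -0.42 (median -0.68) on exposed arrays and from -0.84 to -0.29 (median -0.54) on sham arrays. All exposed values fell inside the sham range (difference -0.09, 95% interval -0.26 to 0.08; limma adjusted p = 0.982). Btg2, an antiproliferative cofactor of mRNA decay, ran from 1.57 to 1.95 (median 1.71) on exposed arrays and from 1.52 to 1.97 (median 1.74) on sham arrays. Its difference of -0.01 (95% interval -0.16 to 0.14; limma adjusted p = 0.994) took the other sign with median scaling (0.0066).

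The 8 cell death genes were all measured. Of these 6 were lower and 2 higher in exposed skin, with a median difference of -0.047, and 1 (Tp53inp1) had an unadjusted p under 0.05. Tp53inp1, which promotes p53 phosphorylation and autophagy, ran from -1.72 to -1.20 (median -1.50) on exposed arrays and from -1.56 to -1.18 (median -1.34) on sham arrays. The groups overlapped, with 8 of 9 exposed arrays below the sham mean and 3 below the lowest sham array. The difference was -0.15 (95% interval -0.30 to -0.00080; limma adjusted p = 0.982), and within each of the 4 slides that carried the arrays it was -0.17, -0.22, -0.20 and -0.19. Gadd45b, Perp and Rrm2b also kept the same sign on every slide. How many of all named genes did so was not counted, so this cannot be read as a trait of these genes. The slides hold the same values as the whole comparison, so they do not replicate it. Slides 1 to 4 held 3, 4, 1 and 1 exposed arrays and 2, 2, 1 and 3 sham arrays. Between slides no kept probe (0%) passed an adjusted p under 0.05 in limma, and 8.91% had an unadjusted p under 0.05, among them 3 of the 30 genes.

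Both proapoptotic Bcl-2 family members of the set had a higher mean in exposed skin, without passing the test. Bax, which opens the outer mitochondrial membrane, ran from -1.33 to -1.07 (median -1.22) on exposed arrays and from -1.47 to -1.20 (median -1.26) on sham arrays. In 4 of 9 exposed arrays it was above the highest sham array, and the difference was 0.09 (95% interval -0.02 to 0.20; limma adjusted p = 0.982), with within-slide values of 0.10, 0.11, -0.05 and 0.01. Bbc3, which encodes PUMA and frees Bax from its inhibitors, ran from -0.70 to -0.01 (median -0.48) on exposed arrays and from -0.76 to -0.18 (median -0.49) on sham arrays. The medians were about equal (difference 0.05, 95% interval -0.17 to 0.27; limma adjusted p = 0.985).

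Perp, a p53 and p63 target, is a desmosome component that holds keratinocytes together. It ran from 6.59 to 6.95 (median 6.79) on exposed arrays and from 6.68 to 7.02 (median 6.91) on sham arrays. Of the exposed arrays 7 of 9 lay below the sham mean, and the difference of -0.08 (95% interval -0.21 to 0.04; limma adjusted p = 0.982) went to 0.0034 with quantile scaling and to 0.0036 in the authors' deposited value table. Fas, a death receptor, ran from -4.58 to -3.23 (median -4.24) on exposed arrays and from -4.51 to -3.72 (median -4.08) on sham arrays. A single exposed array, replicate 7, sets the top of that range, and the difference was -0.06 (95% interval -0.40 to 0.28; limma adjusted p = 0.985), or -0.18 without that array. The other 3 genes were close to 0: Phlda3, a repressor of Akt signalling, differed by -0.05, Aen, an apoptosis-enhancing nuclease, by -0.04, and Zmat3, a splicing regulator, by -0.01 (0.0060 with median scaling).

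Among the genes of metabolism and nucleotide supply 3 of 4 were measured, and 2 were lower and 1 higher. Sesn2, a sestrin that restrains mTORC1 and counters oxidative stress, had the smallest p of the whole set. It ran from -2.96 to -2.40 (median -2.77) on exposed arrays and from -2.76 to -2.31 (median -2.56) on sham arrays. Of the exposed arrays 5 of 9 lay below the lowest sham array and 8 below the sham mean, with the rest inside the sham range. The difference was -0.19 (95% interval -0.36 to -0.01; limma adjusted p = 0.982), and within slides it was -0.19, -0.16, 0.17 and -0.17, the positive value coming from the slide with 1 array of each group. Its relative Sesn3 ran from -1.07 to -0.33 (median -0.74) on exposed arrays and from -1.25 to -0.06 (median -0.82) on sham arrays. All exposed values lay inside the sham range, and the difference was -0.0061 (95% interval -0.33 to 0.31; limma adjusted p = 0.998), with the other sign under quantile scaling (0.0039).

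Rrm2b encodes the p53-inducible subunit of ribonucleotide reductase, which supplies deoxynucleotides outside S phase. It was well above background on 5 of 9 exposed and 4 of 8 sham arrays only, so its values lie near the floor of the scanner. They ran from -6.52 to -3.37 (median -6.11) on exposed arrays and from -6.90 to -5.65 (median -6.30) on sham arrays. Exposed replicate 7 stood far above all others. The difference of 0.41 (95% interval -0.30 to 1.12; limma adjusted p = 0.982) was 0.10 without that array and 0.058 with normexp background correction at the same scaling, and within slides it was 0.12, 0.72, 0.24 and 0.14.

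**Figure D2:**
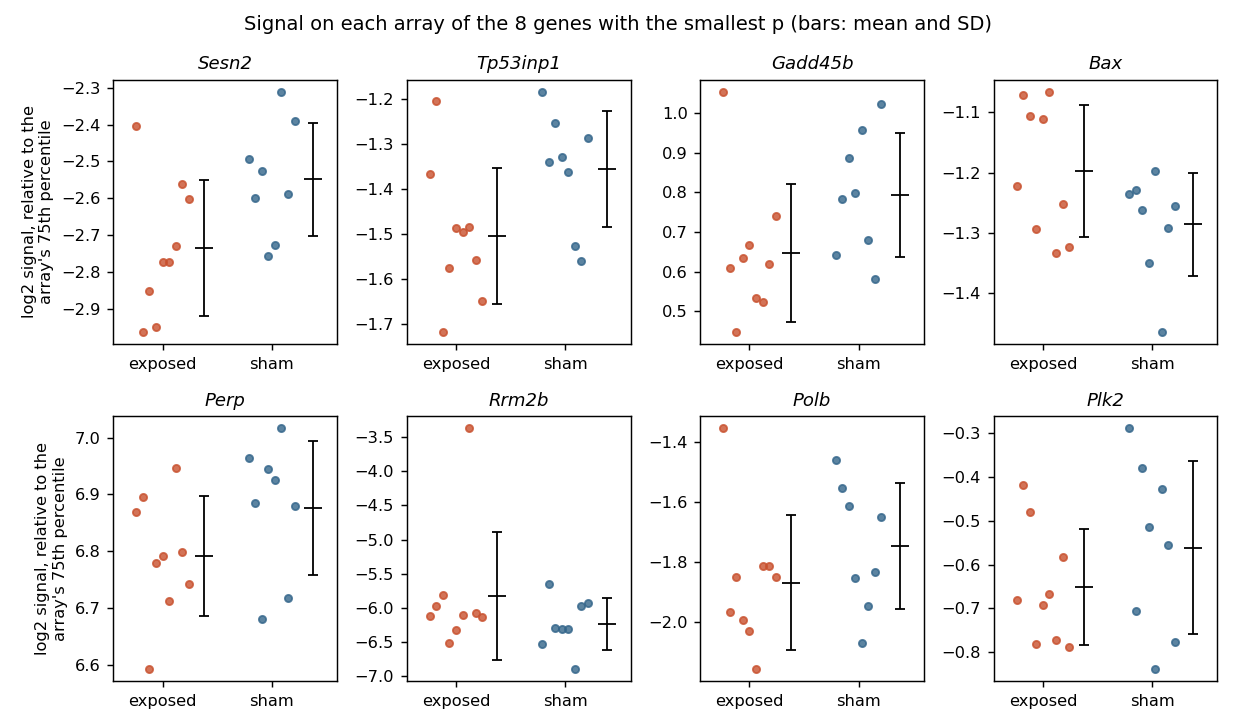
Log2 signal relative to the 75th percentile of each array (vertical axis) on every exposed array (left) and every sham array (right) for the 8 genes with the smallest limma p, with bars for the mean and SD. The groups overlap in every panel; Sesn2 and Tp53inp1 sit lower in exposed skin, and 1 exposed array stands alone at the top for Rrm2b.

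Of the nucleotide excision repair genes only 3 of 6 were measured, and 2 were lower and 1 higher in exposed skin. Xpc, the sensor of distorted helices, ran from -2.47 to -1.96 (median -2.19) on exposed arrays and from -2.44 to -1.92 (median -2.10) on sham arrays. The ranges were nearly the same (difference -0.08, 95% interval -0.25 to 0.09; limma adjusted p = 0.982). Xpa, the scaffold that verifies the lesion, differed by -0.04 (95% interval -0.17 to 0.09). Ercc1, a subunit of the nuclease that cuts on the 5′ side, ran from -0.0057 to 0.32 (median 0.14) on exposed arrays and from 0.03 to 0.29 (median 0.15) on sham arrays, a difference of 0.0048 (95% interval -0.11 to 0.12; limma adjusted p = 0.996).

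Base excision and strand break repair had 5 of 6 genes measured, 4 lower and 1 higher, none at an unadjusted p under 0.05. Ogg1, the glycosylase that removes 8-oxoguanine, ran from -2.36 to -1.96 (median -2.17) on exposed arrays and from -2.30 to -1.98 (median -2.11) on sham arrays. The groups overlapped over nearly all their range, and the difference was -0.02 (95% interval -0.15 to 0.10; limma adjusted p = 0.985). Parp1, which senses strand breaks and builds poly-ADP-ribose, ran from 0.74 to 0.96 (median 0.87) on exposed arrays and from 0.83 to 1.03 (median 0.85) on sham arrays, a difference of -0.0074 (95% interval -0.10 to 0.08; limma adjusted p = 0.994) that was 0.0097 with median scaling. Polb, the gap-filling polymerase, ran from -2.16 to -1.36 (median -1.85) on exposed arrays and from -2.07 to -1.46 (median -1.74) on sham arrays. Again 8 of 9 exposed arrays lay below the sham mean and the remaining one, replicate 1, was the highest of all, and the difference was -0.12 (95% interval -0.34 to 0.10; limma adjusted p = 0.982). The scaffold Xrcc1 differed by -0.03, and Apex1, the endonuclease that cuts abasic sites, by 0.06 (95% interval -0.06 to 0.19; limma adjusted p = 0.982).

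In double-strand break repair and signalling 3 of 5 genes were tested. Xrcc5 and Xrcc6 encode the Ku proteins, which cap broken ends for end joining. Xrcc5 ran from 1.34 to 1.57 (median 1.52) on exposed arrays and from 1.38 to 1.56 (median 1.49) on sham arrays, and its difference of 0.01 had one of the tightest intervals of the set (-0.07 to 0.10; limma adjusted p = 0.987). Xrcc6 ran from 2.23 to 2.96 (median 2.69) on exposed arrays and from 2.41 to 3.14 (median 2.72) on sham arrays. The partner of Xrcc5 thus varied more, at about the same level in both groups (difference -0.05, 95% interval -0.28 to 0.18; limma adjusted p = 0.985). Atm, the kinase at the head of the pathway, ran from -5.20 to -4.57 (median -4.82) on exposed arrays and from -5.02 to -4.48 (median -4.83) on sham arrays, with 3 exposed arrays below the lowest sham array (difference -0.09, 95% interval -0.28 to 0.11; limma adjusted p = 0.982).

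The genes of the set varied from array to array about as much as other named genes, slightly less at the median. The SD over the 17 arrays had a median of 0.162 log2 units, against 0.178 over all named genes, and 20 of the 30 genes lay below that median. Parp1 and Xrcc5 were the steadiest, with SDs of 0.068 each, at percentiles 2.27 and 2.36 of the named genes. Rrm2b (0.74), Fas (0.34), Sesn3 (0.32) and Ccng1 (0.25) varied most. With group means removed, the genes of the set hardly varied together. Pearson's r over the 435 pairs had a median of 0.025 and quartiles of -0.20 and 0.22. Over pairs of all named genes these were 0.0044, -0.23 and 0.24. The 171 pairs of the 19 p53 targets had a median r of 0.052.

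**Figure D3:**
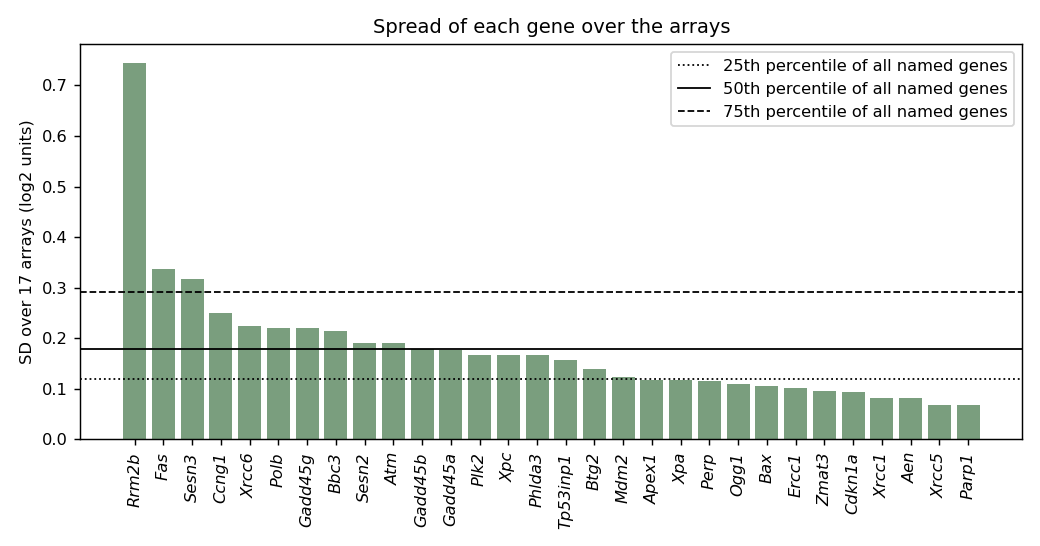
SD over the 17 arrays (vertical axis, log2 units) of each of the 30 genes, in falling order, with lines at the 25th, 50th and 75th percentiles of all named genes (0.119, 0.178 and 0.291). Rrm2b, Fas and Sesn3 lie above the upper line, and most of the other genes lie below the middle one.

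Cdkn1a had a pair of kept probes that hardly correlated, though both had a negative difference. The probe A_44_P914438 gave the values above, but the choice was a near tie, since both probes had a mean of 3.71 over all arrays. The other, A_64_P123895, ran from 3.26 to 4.04 (median 3.47) on exposed arrays and from 3.51 to 4.02 (median 3.85) on sham arrays. Its difference was -0.24 (95% interval -0.46 to -0.0098; limma unadjusted p = 0.042, adjusted p = 0.982). The values of this probe had a gap of 0.18, which was picked out after they were seen: 6 exposed and 1 sham arrays lay between 3.26 and 3.54, and 3 exposed and 7 sham arrays between 3.72 and 4.04. On the first probe the same arrays were not set apart, with 3.56 to 3.82 in the first set and 3.57 to 3.84 in the second. Over the 17 arrays the probes correlated with Pearson's r = 0.13 (permutation p = 0.61) and Spearman's rho = 0.13 (permutation p = 0.62), and r was 0.22 without the 2 arrays farthest from the median. The other 4 genes with a second kept probe had r from -0.12 (Aen) to 0.11 (Mdm2). The permutation p of r, adjusted over these 5 pairs alone, was 0.91 for all 5 pairs, Cdkn1a included. The second probes of the other 4 genes gave differences of -0.08 for Mdm2, -0.04 for Aen, 0.30 for Fas, where the first gave -0.06, and -0.11 for Zmat3. Averaging both probes moved the Cdkn1a difference to -0.15.

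**Figure D4:**
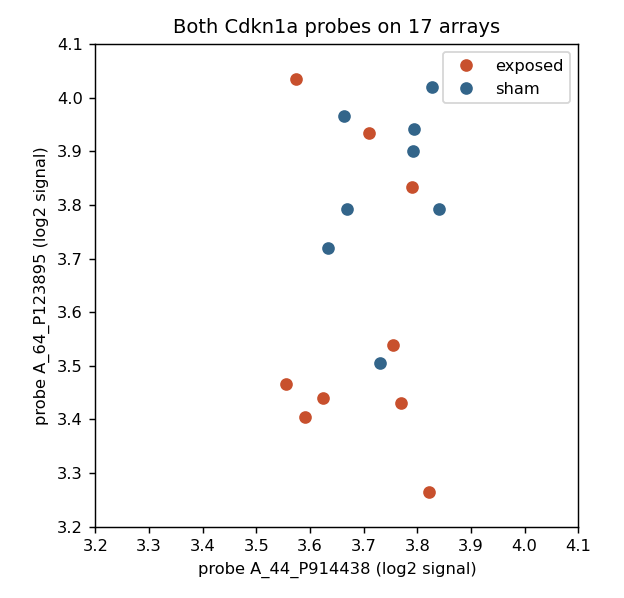
Log2 signal of the second Cdkn1a probe (vertical axis) against the first (horizontal axis) on each of the 9 exposed and 8 sham arrays. A gap on the second probe was picked out after the values were seen. Below it lie 6 exposed and 1 sham arrays, and above it 3 exposed and 7 sham arrays. The first probe spans about the same range in both sets. Whether the gap separates clusters was not tested.

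Each gene was set against array scores of proliferation, hair follicle and skeletal muscle markers, 90 relations in all. Ccng1 followed the skeletal muscle score, and it was the only relation past an adjusted p of 0.05. Over the 17 arrays Pearson's r was 0.78 (permutation p = 0.00018) and Spearman's rho 0.70 (permutation p = 0.0026), a slope of 0.062 log2 units of signal per log2 unit of score. Adjusted over all kept probes in limma, the p was 0.021, and 204 of all kept probes (0.985%) passed. The r was 0.85 within the exposed arrays (n = 9) and 0.72 within the sham arrays (n = 8), and 0.64 with both variables centred within slide. Without exposed replicates 4 and 8, the arrays farthest from the median score, r was 0.66 and the adjusted p 0.29, and with slide as a block the adjusted p was 0.28, so the call was lost in both while r stayed positive.

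The score averages 10 measured of 15 listed muscle genes, 8 of them well above background on every array. It ran from -3.21 to 5.52 (median -0.28) on exposed arrays and from -3.24 to 4.91 (median -2.61) on sham arrays, a difference of 1.57 (two-sided exact permutation p = 0.315). With the hair follicle and muscle scores in the model the exposure difference of Ccng1 was 0.02, against 0.12 without them. Mdm2 and Aen ran against the muscle score, with r = -0.62 (rho = -0.53, permutation p = 0.0075 for r and 0.031 for rho, adjusted p = 0.34) and r = -0.66 (rho = -0.71, permutation p = 0.0045 for r and 0.0021 for rho, adjusted p = 0.41), and neither passed. Without the same 2 arrays r was -0.66 for each. For proliferation 0.169% of the kept probes passed and for hair follicle 3.78%, and none of the 30 genes did. Here 1 array that stood apart from the rest was left out, exposed replicate 4 for proliferation and sham replicate 5 for hair follicle. The closest was Apex1 with hair follicle (n = 16 arrays, r = 0.63, rho = 0.66, permutation p = 0.0093 for r and 0.0065 for rho, adjusted p = 0.16), and r was 0.45 without the 2 farthest arrays.

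**Figure D5:**
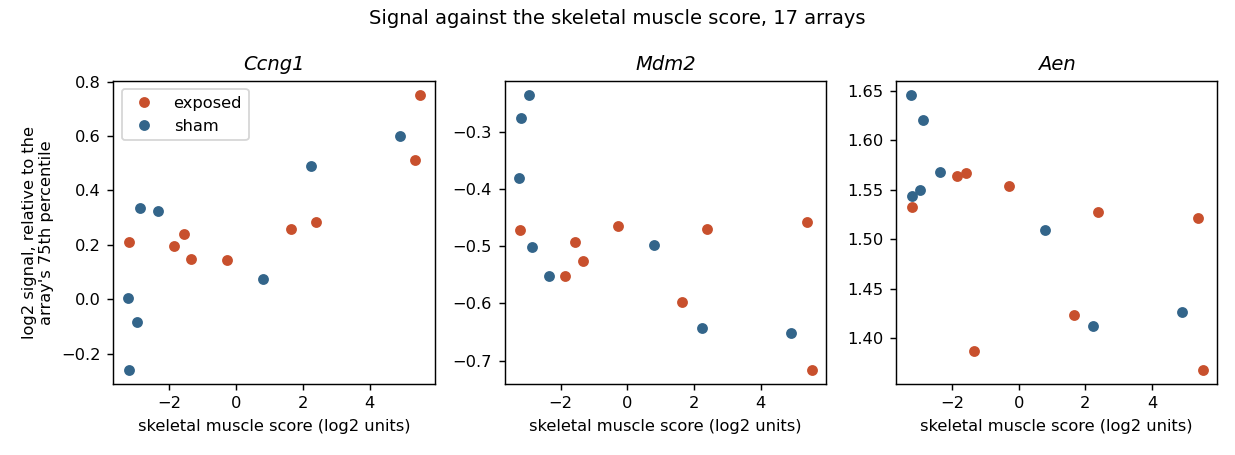
Log2 signal relative to the 75th percentile of each array (vertical axes) against the skeletal muscle score (horizontal axes, log2 units) for Ccng1, Mdm2 and Aen on 9 exposed and 8 sham arrays. Ccng1 goes up with the score in both groups (r = 0.78 over all arrays), and Mdm2 and Aen go down (r = -0.62 and -0.66), without passing the adjusted threshold.

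The wider pathways were taken from lists of 143 further genes, of which 111 had a probe and 105 were tested. None passed an adjusted p under 0.05 in limma. At an unadjusted p under 0.05 there were 2 higher and 2 lower of the 105, beside 3.7% of all named genes. At any p 47 were higher and 58 lower (55.2%), beside 59.3% lower of all named genes, with a median difference of -0.01. By list the share lower ran from 28.6% in mismatch repair to 76.2% in the other p53 pathway genes. Of the other p53 pathway genes 16 of 21 (76.2%) were lower, with a median of -0.03, beside 59.3% of all named genes at the same scaling. With median scaling, under which this list was not counted, 50.4% of all named genes were lower. Mdm4, the partner of MDM2 that masks the p53 activation domain, ran from -2.40 to -2.03 (median -2.17) on exposed arrays and from -2.14 to -1.89 (median -1.99) on sham arrays. The groups overlapped, and the difference was -0.17 (95% interval -0.31 to -0.04; limma adjusted p = 0.982). Tp73, a p53 relative, differed by -0.16 (limma adjusted p = 0.982).

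Of the base excision and strand break repair list 8 of 17 were higher and 9 lower. Its uracil glycosylases Ung and Smug1, both with an unadjusted p under 0.05, had differences of opposite sign. Ung differed by 0.19 (95% interval 0.02 to 0.35; limma adjusted p = 0.982) and Smug1 by -0.16 (95% interval -0.30 to -0.01; limma adjusted p = 0.982). In mismatch repair 5 of 7 were higher. The exonuclease Exo1, well above background on 8 of 9 exposed and 6 of 8 sham arrays, differed by -0.20 (limma adjusted p = 0.982), or by -0.032 with normexp and quantile scaling. In the damage checkpoint list 7 of 11 were higher, 4 lower. Chek1, the kinase downstream of ATR, differed by 0.25 (95% interval -0.0061 to 0.51; limma adjusted p = 0.982), or by 0.037 with normexp background correction at the same scaling, and Atrip, the ATR partner, by -0.08 (limma adjusted p = 0.982).

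The rest of the lists held no gene at an unadjusted p under 0.05. In nucleotide excision repair 11 of 18 were higher, and the smallest p belonged to the TFIIH subunit Gtf2h3 (-0.12) and to Mnat1 (0.06), an assembly factor of its kinase. In double-strand break repair 8 of 19 were higher, with Lig4, the end-joining ligase, at -0.12 and Rnf168, which marks chromatin near breaks with ubiquitin, at -0.10. Of the Fanconi, translesion and direct repair genes 3 of 12 were higher and 9 lower, with a median of -0.05. Polh, the polymerase that copies past ultraviolet dimers, stood at -0.10 and Fancl, the ligase of the Fanconi core complex, at -0.07.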

How the data were processed

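The 17 arrays were deposited as scanner files whose spots carry a linear fluorescence intensity, made by the authors in Feature Extraction 10.7.3.1 (protocol GE1_107_Sep09, grid annotated on rn4), per the file headers; the processed signal is background-subtracted within each array. Quality flags of other kinds, deposited per spot, served to drop outlier spots and to call a probe well above background. The deposited value table, on a log2 scale and centred per gene, was made by the authors with a scaling not given in the sources used here; its 14853 probes correlated at 0.98 to 0.999 with the scanner values, its column medians ran from -0.0375 to 0.0412, and it served as an alternative.

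Each log2 processed signal was set relative to the 75th percentile of its array over non-control spots. Spots of a probe were averaged (30 pairs of a probe and an array had no usable spot), and 20710 probes well above background on at least 8 arrays were kept, 18760 of them so on all 17. Sequence names were matched to RefSeq symbols of GRCr8, which named 17998 of 30367 probes. Where a gene had more than 1 kept probe, the brightest was read. The group comparison used limma 3.58.1 (R 4.3.3) without covariates, and p-values were adjusted by Benjamini-Hochberg over the kept probes, with 0.05 as the limit; the fit was tested on simulated data. The members and lists were chosen with earlier results of these data known. Values by group are given for the 8 genes with the smallest p, the 4 with the largest, the 2 with the smallest SD, and a set of well-known p53 and repair genes; from each wider list the 2 with the smallest p are named, except that the values of 1 such gene are not reported here. Scores are means over a marker list of log2 values centred per gene, compared between groups over all 24310 splits, and their correlations used 100000 permutations. Adjusted p-values of correlations with scores are over all kept probes rather than over the 90 relations, a change made after seeing the data. Alternatives were quantile and median scaling, normexp with an offset of 50 (on the median signal, since the mean is not used here), 2 filters, slide as a block, array weights, tissue and proliferation scores as covariates, the mean over probes, the deposited table and leaving out each array. Each slide was scanned apart, so a scan block adds nothing to slide. Comparisons within each slide were added after seeing the data.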

Additional observations from a re-analysis of the deposited data

Results flagged for a closer look

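In 8 of the 60 combinations of gene and group that were checked, 1 array stood apart from the others of its group by Dixon's test. For normally distributed values chance does so in about 1 in 20. The share over all named genes was not counted, so the 8 cannot be read as a trait of this set. Exposed replicate 7 was high for Rrm2b (-3.37, the other exposed arrays -6.52 to -5.82) and for Fas (-3.23, the others -4.58 to -3.90). Exposed replicate 1 was high for Gadd45b (1.05, the others 0.447 to 0.739) and for Polb (-1.36, the others -2.16 to -1.81). Zmat3 was low in exposed replicate 8 (-0.0647, the others 0.146 to 0.254), and Xrcc5 was low in exposed replicate 4 (1.34, the others 1.46 to 1.57). Among the sham arrays, Xpc was low in replicate 5 (-2.44, the others -2.15 to -1.92) and Parp1 was high in replicate 6 (1.03, the others 0.828 to 0.905). All values are log2 signal relative to the 75th percentile of the array.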

How the results depend on the processing

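The count of genes of the set past an adjusted p of 0.05 was 0 under each of the 29 settings run, 17 of which left out 1 array, and that of all probes was 0 under each but the mean over a gene's probes, for which no probe count exists. The count at an unadjusted p under 0.05, 2 in the values reported, was 1 with quantile scaling, median scaling, no filter on dim probes, slide as a block, tissue scores or the proliferation score as covariates, and the deposited table, which holds 27 of the genes, and 0 with normexp under either scaling. It was 3 with the mean over all kept probes of a gene. Leaving out 1 array moved it from 0 to 4: it was 4 without exposed replicate 1 and 3 without sham replicate 7, 0 without exposed replicates 3, 4, 5 and 6 or sham replicates 1, 3 and 8, and 1 without any other. The median difference of the set kept its sign (-0.0522 to -0.0167 when 1 array was left out), and 18 of the 30 genes kept theirs throughout. The size of these small differences was less steady: leaving out 1 array moved 24 of the 30 by over 1.5 times, all but Cdkn1a, Gadd45b, Bax, Perp, Sesn2 and Tp53inp1, and another setting so moved 25. Leaving out 1 array gave -0.108 (without exposed replicate 1) to -0.0204 (without sham replicate 3) for Gadd45a, -0.0862 (sham 3) to -0.0267 (sham 1) for Mdm2, -0.125 (exposed 8) to -0.044 (sham 3) for Atm and -0.097 (sham 6) to -0.0101 (exposed 8) for Phlda3, and Sesn2 was -0.11 with normexp and quantile scaling. The cause of the changes was not tested. Sesn3 was 0.0039 with quantile scaling, 0.011 with median scaling, 0.030 with array weights and 0.0041 in the deposited table; Perp was 0.0034, 0.0031 and 0.0036 with quantile scaling, normexp with quantile scaling and the deposited table. Btg2 was 0.0066 with median scaling, 0.0036 and 0.0066 with normexp and the 75th percentile or quantile scaling, and 0.033 with tissue scores. Zmat3 was 0.0060 with median scaling and 0.019 with tissue scores, Parp1 0.0097 with median scaling, Ercc1 -0.0030 with slide as a block and -0.0021 with array weights, Fas 0.013 with tissue scores and 0.12 as the mean of its probes, and Xrcc6 0.021 with tissue scores. When 1 array was left out the range was -0.0040 to 0.090 for Bbc3, -0.040 to 0.024 for Btg2, -0.015 to 0.026 for Ercc1, -0.031 to 0.092 for Gadd45g, -0.051 to 0.0028 for Ogg1, -0.019 to 0.014 for Parp1, -0.078 to 0.092 for Sesn3, -0.00086 to 0.035 for Xrcc5, -0.10 to 0.0092 for Xrcc6 and -0.025 to 0.020 for Zmat3. The count of relations with scores past the threshold, 1 in the values reported, was 0 within exposed arrays, 0 within sham arrays and 0 with slide as a block; without the 2 arrays farthest from the median score it was 1, Perp with hair follicle (adjusted p = 0.045) in place of Ccng1. Array number limits precision, and Rrm2b lies near background. No paired analysis was possible because the labels do not pair exposed with sham arrays. The replicate numbers used here follow the order of the samples within each group and do not identify a rat.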
